A study of Homo sapiens with 6 samples.

Results

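The genes described here are the Rab GTPases, taken as every gene whose symbol is RAB followed directly by a number and at most 1 letter, on probe sets that the array's annotation assigns to 1 gene only. They made up 57 of the 19775 genes named on the array, with 138 probe sets. Of these 57 genes, 42 had a probe set with a mean of at least log2 4 over all arrays and are called measured. RNA came from PC3, a human prostate cancer cell line, 72 h after transfection of siRNA against NRP-2, siRNA against VEGF-C or scrambled siRNA, with 2 Affymetrix HG-U133 Plus 2.0 arrays in each of the 3 groups. NRP-2 (neuropilin 2) is a cell surface co-receptor, VEGF-C is a secreted growth factor that binds it, and the series title names the regulation of autophagy by this axis. All groups were cells of the same line in serum-containing RPMI medium. The NRP-2 siRNA came from Santa Cruz Biotechnology and the VEGF-C siRNA from Dharmacon, so the target and the supplier of these siRNAs cannot be told apart. The labels do not say that the 2 arrays of a group came from separate cultures, and a p-value here therefore reflects only how far these arrays differ, which may be technical.

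Rab proteins are small GTPases that switch between a GDP-bound form and a GTP-bound form. Exchange factors load GTP and recruit a Rab to its membrane, GTPase activating proteins end the signal, and effectors that bind the GTP form tether, move or fuse vesicles. Each organelle carries its own set: RAB1 and RAB2 act between the endoplasmic reticulum and the Golgi, RAB5 on early endosomes, RAB11 on recycling endosomes, RAB7 on late endosomes and autophagosomes, and RAB3 and RAB27 on vesicles that fuse with the cell surface.

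Before any Rab gene was compared, the targeted genes were read in every array. VEGFC had deposited log2 values of 11.99 and 11.67 after NRP-2 siRNA, 8.46 and 7.27 after VEGF-C siRNA, and 11.81 and 11.80 after scrambled siRNA. NRP2 had 3.41 and 2.81 after NRP-2 siRNA, 5.51 and 6.01 after VEGF-C siRNA, and 4.77 and 4.92 after scrambled siRNA. Each targeted gene was thus lowest in the group labelled for it, yet neither passed an adjusted p of 0.05 against scrambled siRNA (limma's adjusted p = 0.213 for NRP2 and 0.204 for VEGFC). NRP2 was read near the log2 4 minimum, and its values after NRP-2 siRNA lay under it. With VEGF-C siRNA the mean of NRP2 was 1.88-fold higher than with scrambled siRNA (limma's adjusted p = 0.257). All 5 epithelial markers read (KRT8, KRT18, KRT19, EPCAM, CDH1) were measured, while PTPRC, CD3E and CD14 of leukocytes and CDH5 and VWF of endothelium stayed under log2 4 on average. PECAM1 (mean 9.83), COL1A1 (mean 10.24) and COL3A1 were measured, although DCN and LUM of fibroblasts were not, nor was KLK2 of prostate luminal cells (KLK3 averaged 6.46 and TMPRSS2 8.51). The average of 33 genes of G2 and mitosis differed between arrays of a group: 10.99 and 9.91 after NRP-2 siRNA, 11.14 and 10.39 after VEGF-C siRNA, and 10.26 and 8.57 after scrambled siRNA. The mean of the measured Rab genes varied far less, between 9.88 and 10.10 over the 6 arrays.

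Which Rab genes PC3 cells express was read first. The 15 genes that were not measured included RAB38, a Rab of melanosomes and other lysosome-related organelles, at a mean of 2.83, and the neuronal and endocrine secretory forms RAB3A (3.86), RAB3B (2.81) and RAB3C (2.65), as well as RAB37 (2.29). RAB11B, RAB33A, RAB39A, RAB40A, RAB43, RAB4B, RAB5C, RAB6A, RAB6B and RAB7B made up the rest, of which RAB11B was highest at 3.61. A low value on these probe sets does not show that a gene is off, since 9 of the 15 had only 1 probe set with that gene alone. Probe sets shared by several genes, such as those of RAB6A with RAB6C, were left out. The spread between arrays of a group, pooled over the 3 groups, had a median SD of 0.15 over the 42 measured Rab genes and 0.18 over all genes tested. Chosen after the values were seen as the extremes of that spread, RAB39B varied most (SD 1.39) and RAB35 least (SD 0.018). RAB39B had 2.88 and 3.83 after NRP-2 siRNA, 3.23 and 5.84 after VEGF-C siRNA, and 5.88 and 3.91 after scrambled siRNA, so that in 2 of the 3 groups the arrays lay farther apart than any pair of group means.

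No Rab gene passed an adjusted p of 0.05 in any comparison. Benjamini-Hochberg adjustment ran over all 11131 genes tested with limma, of which 0% passed in each of the 3 comparisons. Counts at an unadjusted p under 0.05 are therefore given as a description, each beside the share of all genes at the same threshold. Between NRP-2 and VEGF-C siRNA, 10 of 42 Rab genes (23.8%) had such a p, against 18.2% of all genes. Of these, 8 were higher with NRP-2 siRNA (19.0%, against 9.54% of all genes) and 2 lower (4.76%, against 8.66%). Between NRP-2 and scrambled siRNA the count was 5 (11.9%, against 13.3% of all genes), with 4 higher (9.52%, against 6.43%) and 1 lower (2.38%, against 6.85%). Between VEGF-C and scrambled siRNA it was 6 (14.3%, against 14.8%), with 2 higher (4.76%, against 6.95%) and 4 lower (9.52%, against 7.8%). The counts against scrambled siRNA lie near those of all genes, and both comparisons share the same 2 scrambled arrays. Leaving out single arrays moved the counts against scrambled siRNA by over 1.5 times, for Rab genes and over all genes alike. Such arrays included the first scrambled and the second NRP-2 array for NRP-2 siRNA, and the second scrambled array for VEGF-C siRNA.

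**Figure D1:**
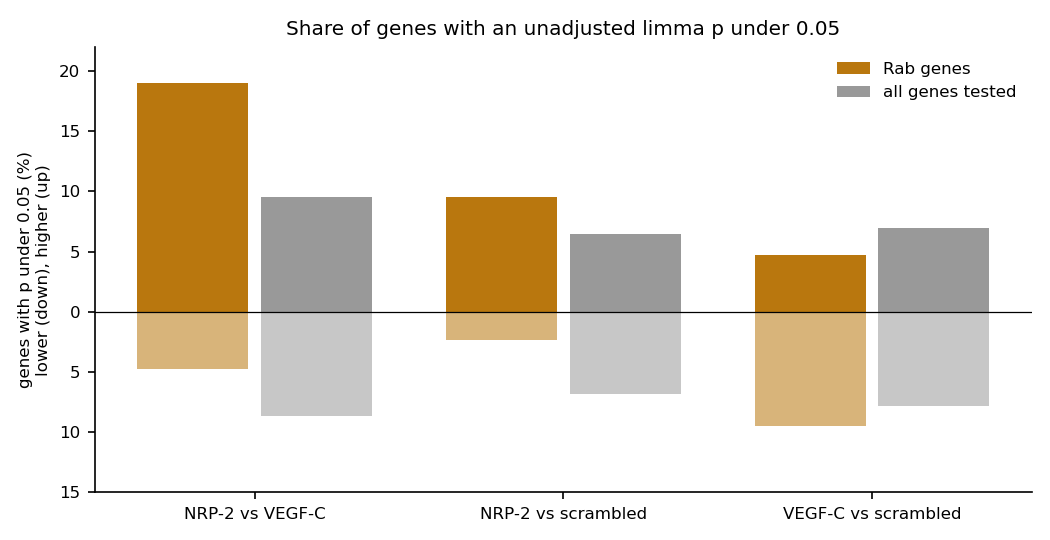
Share of genes (percent, vertical axis) with an unadjusted limma p under 0.05, drawn upward for higher and downward for lower, for the measured Rab genes and for all genes tested in the 3 comparisons (horizontal axis). The upward Rab bar of NRP-2 against VEGF-C siRNA reaches 19.0%, beside an all-gene bar of 9.54%.

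The median of the Rab genes was set beside that of all genes in each comparison. The median log2 difference of the 42 genes was 0.13 between NRP-2 and VEGF-C siRNA, where the median of all genes was 0.018, and 27 Rab genes (64.3%) were above 0, against 52.7% of all genes. Between VEGF-C and scrambled siRNA the median was -0.19, against -0.0044 over all genes, and 28 Rab genes (66.7%) were below 0, against 50.7% of all genes. Without the first VEGF-C array this median was -0.063, the closest to 0 of the values with an array left out. With NRP-2 siRNA against scrambled siRNA, 21 Rab genes were above 0 and 21 below, with a median of 0.0037, against 0.012 over all genes. Both arrays of a group lay on the same side of both arrays of the other for 21 Rab genes (50%) between NRP-2 and VEGF-C siRNA, 25 (59.5%) between NRP-2 and scrambled siRNA and 27 (64.3%) between VEGF-C and scrambled siRNA. Over all genes such separation was found for 46.5% between NRP-2 and VEGF-C siRNA, 49.7% between NRP-2 and scrambled siRNA and 53.4% between VEGF-C and scrambled siRNA. With 2 arrays against 2, an exact permutation test of a single gene cannot give a two-sided p under 0.333.

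**Figure D2:**
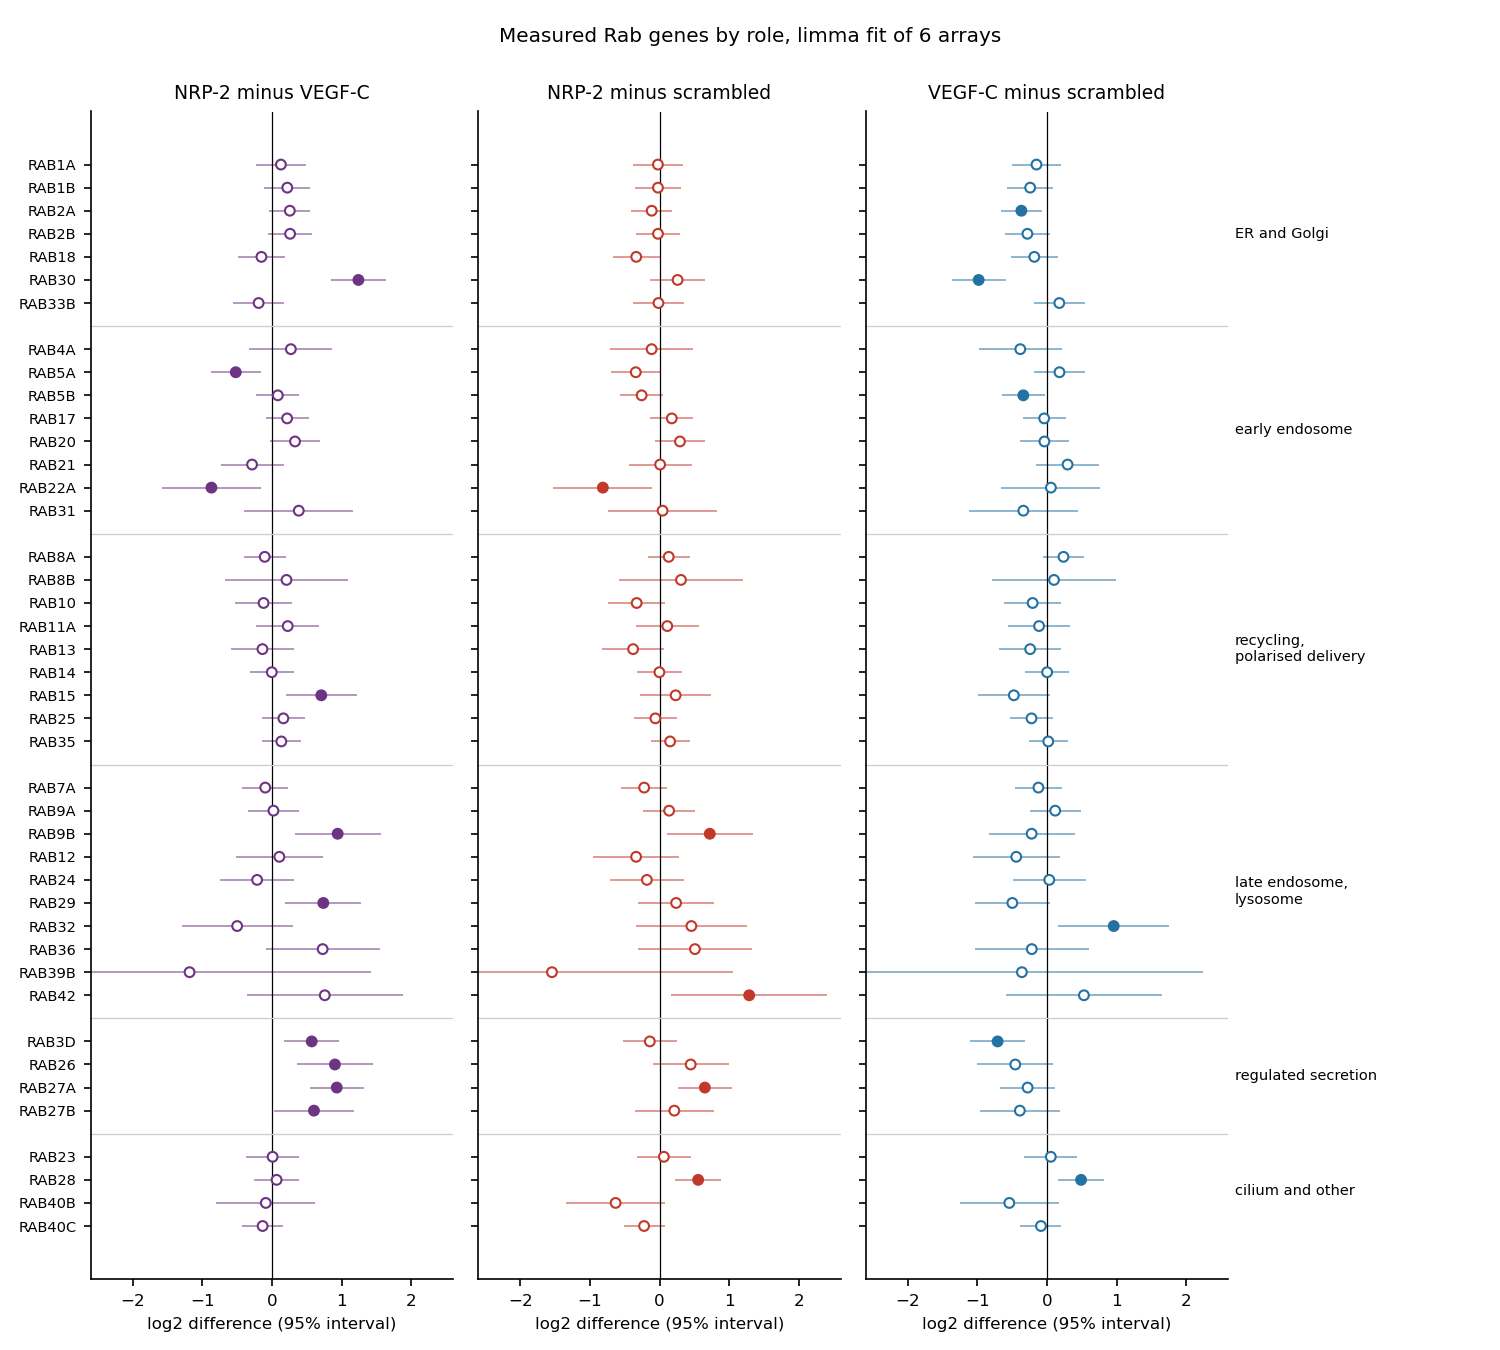
Log2 differences (horizontal axis) of the 42 measured Rab genes, by role, between NRP-2 and VEGF-C, NRP-2 and scrambled, and VEGF-C and scrambled siRNA; points are differences of means of 2 arrays, lines their 95% intervals from limma, and filled points have an unadjusted p under 0.05. All 4 secretion genes are filled at the right of 0 in the first panel, and 3 intervals of RAB39B run past the axis limit of 2.6.

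Rabs of the endoplasmic reticulum and Golgi held the smallest p of the family. RAB30, a Golgi Rab, had values of 8.95 and 8.90 after NRP-2 siRNA, 7.84 and 7.53 after VEGF-C siRNA, and 8.57 and 8.76 after scrambled siRNA. Both VEGF-C arrays were lower than all the others, and NRP-2 arrays lay slightly above scrambled ones. RAB30 was 2.36-fold higher with NRP-2 than with VEGF-C siRNA, a log2 difference of 1.24 with an SE of 0.16 (limma's adjusted p = 0.098), and 1.97-fold lower with VEGF-C than with scrambled siRNA (log2 difference -0.98, SE 0.16, limma's adjusted p = 0.204). These unadjusted p-values stayed under 0.05 in all 15 alternative analyses. Its other 2 measured probe sets differed the same way between VEGF-C and scrambled siRNA, by -1.23 and -0.38. Between NRP-2 and scrambled siRNA, the difference of RAB30 was 0.26, with a 95% interval of -0.13 to 0.65.

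RAB2A, which acts in traffic between the endoplasmic reticulum and the Golgi, had 11.43 and 11.36 after NRP-2 siRNA, 11.19 and 11.09 after VEGF-C siRNA, and 11.50 and 11.52 after scrambled siRNA. The groups did not overlap, but the gap was small: the VEGF-C mean was 1.29-fold lower than the scrambled mean (log2 difference -0.37, SE 0.12, limma's adjusted p = 0.279). Its 6 measured probe sets disagreed in sign, from -0.78 to 0.16, and the unadjusted p was over 0.05 without either scrambled array or without the second VEGF-C array. RAB1A, needed for traffic out of the endoplasmic reticulum and for the start of autophagosomes, had 13.79 and 13.81 after NRP-2 siRNA, 13.53 and 13.82 after VEGF-C siRNA, and 13.83 and 13.81 after scrambled siRNA. Those groups overlapped, and the 95% intervals of RAB1A ran from -0.23 to 0.48 between NRP-2 and VEGF-C, -0.38 to 0.33 between NRP-2 and scrambled and -0.50 to 0.20 between VEGF-C and scrambled siRNA. RAB33B, a Golgi Rab that binds the autophagy protein ATG16L1, had 9.52 and 9.80 after NRP-2 siRNA, 9.85 and 9.85 after VEGF-C siRNA, and 9.75 and 9.60 after scrambled siRNA. No RAB33B difference had an unadjusted p under 0.05, and the outermost, -0.19 between NRP-2 and VEGF-C siRNA, had an interval of -0.56 to 0.17. RAB18, found on lipid droplets and the endoplasmic reticulum, had 11.83 and 11.94 after NRP-2 siRNA, 11.93 and 12.15 after VEGF-C siRNA, and 12.25 and 12.19 after scrambled siRNA. The NRP-2 arrays of RAB18 lay below the scrambled ones, by a log2 difference of -0.33 (SE 0.14, limma's adjusted p = 0.378). Of the 7 measured genes of this role, 6 were below 0 with VEGF-C siRNA against scrambled siRNA, with a median of -0.24, where 50.7% of all genes were below 0. Against the same scrambled arrays, 6 were also below 0 with NRP-2 siRNA, with a median of -0.022, where 48.2% of all genes were. At an unadjusted p under 0.05, 2 of the 7 were lower with VEGF-C siRNA, where 7.8% of all genes were. With NRP-2 siRNA 0 were, where 6.85% of all genes were. These roles were chosen with earlier results of these data known, so such counts are descriptions.

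All 4 measured Rabs of regulated secretion, of 8 listed, were higher with NRP-2 than with VEGF-C siRNA at an unadjusted p under 0.05. Of all genes, 9.54% were, and the median log2 difference of the 4 was 0.75. The list was chosen with earlier results of these data known, and its genes were read on the same arrays. The count is therefore a description and not a test. It holds for the brightest probe set of each gene, and for RAB27B not for the mean of its probe sets. The probe sets of RAB27A also parted in this comparison, with differences from -0.20 to 1.03, although their mean kept an unadjusted p under 0.05. RAB27A, which docks secretory granules, lysosome-related organelles and multivesicular bodies at the cell surface, had 9.30 and 9.01 after NRP-2 siRNA, 8.16 and 8.28 after VEGF-C siRNA, and 8.41 and 8.59 after scrambled siRNA. The NRP-2 arrays were above all the others and the VEGF-C arrays below. RAB27A was 1.91-fold higher with NRP-2 than with VEGF-C siRNA (log2 difference 0.93, SE 0.16, limma's adjusted p = 0.116) and 1.57-fold higher than with scrambled siRNA (0.65, SE 0.16, limma's adjusted p = 0.234). RAB3D, a Rab of secretory granules in exocrine cells, had 11.65 and 11.91 after NRP-2 siRNA, 11.15 and 11.27 after VEGF-C siRNA, and 11.81 and 12.03 after scrambled siRNA. Here the VEGF-C arrays alone stood apart, while NRP-2 and scrambled arrays overlapped. RAB3D was 1.63-fold lower with VEGF-C than with scrambled siRNA (log2 difference -0.71, SE 0.16, limma's adjusted p = 0.232), with an unadjusted p under 0.05 in all 15 alternatives. Between NRP-2 and VEGF-C siRNA its difference was 0.57 (SE 0.16, limma's adjusted p = 0.172), and that unadjusted p was over 0.05 without the second NRP-2 array or without the first VEGF-C array.

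RAB26, a Rab of secretory granules and synaptic vesicles, had 6.66 and 6.23 after NRP-2 siRNA, 5.76 and 5.32 after VEGF-C siRNA, and 6.01 and 5.98 after scrambled siRNA. The groups were ordered without overlap, scrambled siRNA in the middle. RAB26 was 1.87-fold higher with NRP-2 than with VEGF-C siRNA (log2 difference 0.90, SE 0.22, limma's adjusted p = 0.143), in all 14 alternatives that gave a value at an unadjusted p under 0.05. On its dimmer probe set RAB26 differed from scrambled siRNA by 0.51 with NRP-2 siRNA (limma's unadjusted p = 0.0179) and by -0.39 with VEGF-C siRNA (limma's unadjusted p = 0.0476). RAB27B, the close relative of RAB27A in exosome and granule release, had 13.35 and 13.54 after NRP-2 siRNA, 13.09 and 12.59 after VEGF-C siRNA, and 13.04 and 13.42 after scrambled siRNA. Its difference between NRP-2 and VEGF-C siRNA was 0.60 (SE 0.23, limma's adjusted p = 0.257) on the brightest probe set. The other 2 probe sets of RAB27B had higher means with VEGF-C than with NRP-2 siRNA, so that the mean of all 3 differed by -0.0058. Without either NRP-2 array, or without the second VEGF-C array, at which the difference was 0.35, the unadjusted p of RAB27B was over 0.05. Without the second NRP-2 array, only 2 of the 4 secretion genes, RAB27A and RAB26, had an unadjusted p under 0.05 between NRP-2 and VEGF-C siRNA.

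**Figure D3:**
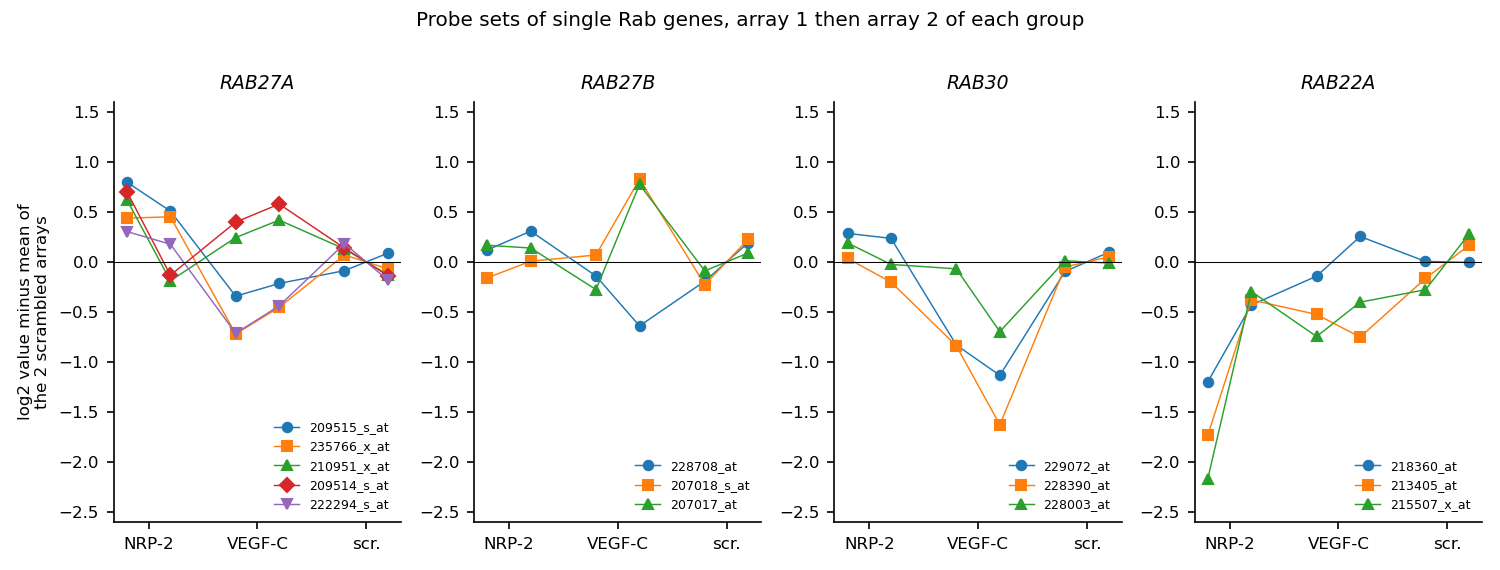
Values of each measured probe set of RAB27A, RAB27B, RAB30 and RAB22A, as log2 value minus the mean of the 2 scrambled arrays (vertical axis), for array 1 then array 2 of NRP-2, VEGF-C and scrambled siRNA (horizontal axis); lines only join points of a probe set. All 3 probe sets of RAB30 are lowest in the second VEGF-C array and all 3 of RAB22A in the first NRP-2 array, whereas those of RAB27A and RAB27B part in the VEGF-C arrays.

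Probe sets of a gene read different stretches of its transcripts and did not always differ alike. Of 26 Rab genes with several measured probe sets, all had the same sign for 18 between NRP-2 and VEGF-C siRNA, 17 between NRP-2 and scrambled siRNA and 16 between VEGF-C and scrambled siRNA. For RAB27A, 3 probe sets, the brightest among them, were lower with VEGF-C than with scrambled siRNA, by -0.28, -0.59 and -0.58. The other 2 probe sets of the same gene were higher, by 0.33 and 0.49, and their 2 NRP-2 arrays lay on either side of the VEGF-C arrays. On the mean of its 5 probe sets, RAB27A differed by 0.37 between NRP-2 and scrambled siRNA, with limma's unadjusted p = 0.0959. At the level of probe sets, 21 of 89 Rab probe sets (23.6%) had an unadjusted p under 0.05 between NRP-2 and VEGF-C siRNA. The share of all 19946 probe sets tested was 18.6%. Between NRP-2 and scrambled siRNA there were 11 (12.4%, against 13.8%), and between VEGF-C and scrambled siRNA 15 (16.9%, against 13.9%). Several of these probe sets belong to the same gene, so these counts in part repeat those by gene.

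On the brightest probe set of each gene, early endosome Rabs included the only measured members that were lower with NRP-2 siRNA at an unadjusted p under 0.05. RAB22A, which sorts cargo on early endosomes, had 10.72 and 11.48 after NRP-2 siRNA, 11.77 and 12.17 after VEGF-C siRNA, and 11.92 and 11.91 after scrambled siRNA. Both NRP-2 arrays were below all the others, the first far below. RAB22A was 1.83-fold lower with NRP-2 than with VEGF-C siRNA (log2 difference -0.87, SE 0.28, limma's adjusted p = 0.215) and 1.76-fold lower than with scrambled siRNA (-0.81, SE 0.28, limma's adjusted p = 0.334). The first NRP-2 array carried much of this: without it the differences were -0.49 and -0.43, with an unadjusted p over 0.05 for both. Against VEGF-C siRNA the p was also over 0.05 without the second VEGF-C array, and against scrambled siRNA without either scrambled array. Its 3 probe sets were all lower with NRP-2 than with scrambled siRNA, by -0.81, -1.05 and -1.23, but parted between VEGF-C and scrambled siRNA, at 0.06, -0.64 and -0.57.

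RAB5A, the main Rab of early endosome fusion, had 12.74 and 13.01 after NRP-2 siRNA, 13.34 and 13.45 after VEGF-C siRNA, and 13.24 and 13.19 after scrambled siRNA. The NRP-2 arrays lay below and the VEGF-C arrays above the scrambled ones. RAB5A was 1.43-fold lower with NRP-2 than with VEGF-C siRNA (log2 difference -0.52, SE 0.14, limma's adjusted p = 0.173), with an unadjusted p over 0.05 once the second VEGF-C array was left out. Against scrambled siRNA its difference was -0.34 with NRP-2 siRNA, with an interval of -0.70 to 0.02, and 0.18 with VEGF-C siRNA, with an interval of -0.18 to 0.54. On its other measured probe set the difference between NRP-2 and scrambled siRNA was -0.57 (limma's unadjusted p = 0.0406). RAB5B, a close relative of RAB5A, had 9.03 and 9.18 after NRP-2 siRNA, 8.97 and 9.07 after VEGF-C siRNA, and 9.37 and 9.35 after scrambled siRNA. Scrambled arrays were the highest, and the VEGF-C mean was 1.27-fold lower than theirs (log2 difference -0.34, SE 0.12, limma's adjusted p = 0.319). The unadjusted p of RAB5B was over 0.05 whenever a VEGF-C or scrambled array was left out.

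Of 9 measured Rabs of recycling endosomes and polarised delivery, only RAB15 had an unadjusted p under 0.05 on its brightest probe set. That was between NRP-2 and VEGF-C siRNA (11.1% of the list, against 18.2% of all genes). Dimmer probe sets of RAB10 and RAB14, named after their values were seen, also had such a p. With NRP-2 siRNA that of RAB10 was lower, and that of RAB14 higher, than in either other group. That of RAB14 averaged 4.11, with means under log2 4 after VEGF-C (3.95) and scrambled siRNA (3.68). It thus passed the minimum only through its NRP-2 arrays, and its difference is a description only. The brighter probe sets of RAB14 differed by -0.0015 and 0.18 between NRP-2 and scrambled siRNA, neither with such a p. RAB15, which acts in the recycling of receptors such as that of transferrin, had 10.59 and 10.41 after NRP-2 siRNA, 9.53 and 10.06 after VEGF-C siRNA, and 10.23 and 10.31 after scrambled siRNA. The groups did not overlap, and RAB15 was 1.63-fold higher with NRP-2 than with VEGF-C siRNA (log2 difference 0.71, SE 0.20, limma's adjusted p = 0.182). The unadjusted p was over 0.05 without the first NRP-2 array, and the difference was 0.44 without the first VEGF-C array. RAB11A, the Rab of the recycling endosome, had 13.38 and 13.00 after NRP-2 siRNA, 12.82 and 13.10 after VEGF-C siRNA, and 13.10 and 13.05 after scrambled siRNA. On this brightest probe set the groups overlapped, and the intervals of RAB11A were -0.22 to 0.68 between NRP-2 and VEGF-C, -0.34 to 0.56 between NRP-2 and scrambled and -0.56 to 0.34 between VEGF-C and scrambled siRNA. A dimmer probe set of RAB11A had 8.78 and 8.97 after NRP-2 siRNA, 8.44 and 8.50 after VEGF-C siRNA, and 9.10 and 9.02 after scrambled siRNA. Its VEGF-C arrays lay below the other 4, with differences of 0.40 between NRP-2 and VEGF-C siRNA (limma's unadjusted p = 0.0257) and -0.59 between VEGF-C and scrambled siRNA (limma's unadjusted p = 0.00519, adjusted p = 0.250 over all probe sets).

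Late endosome and lysosome Rabs had no common direction. RAB7A, which drives the fusion of late endosomes and autophagosomes with lysosomes, had 10.94 and 11.09 after NRP-2 siRNA, 11.02 and 11.21 after VEGF-C siRNA, and 11.23 and 11.25 after scrambled siRNA. No RAB7A difference had an unadjusted p under 0.05: the intervals were -0.43 to 0.24 between NRP-2 and VEGF-C, -0.55 to 0.11 between NRP-2 and scrambled and -0.46 to 0.21 between VEGF-C and scrambled siRNA. RAB24, a Rab linked to late steps of autophagy, had 9.14 and 9.61 after NRP-2 siRNA, 9.51 and 9.66 after VEGF-C siRNA, and 9.39 and 9.71 after scrambled siRNA. Its groups overlapped, and its widest distance from 0 was a difference of -0.21 between NRP-2 and VEGF-C siRNA, with an interval of -0.74 to 0.31. RAB9B, a relative of the late endosome Rab RAB9A, had 5.40 and 5.04 after NRP-2 siRNA, 4.07 and 4.49 after VEGF-C siRNA, and 4.26 and 4.74 after scrambled siRNA, which puts it near the minimum for a measured gene. Both NRP-2 arrays were above all others. RAB9B was 1.92-fold higher with NRP-2 than with VEGF-C siRNA (log2 difference 0.94, SE 0.25, limma's adjusted p = 0.161) and 1.65-fold higher than with scrambled siRNA (0.72, SE 0.25, limma's adjusted p = 0.326). The first of these unadjusted p-values was over 0.05 without the first NRP-2 or first VEGF-C array, and the second without the first NRP-2 or first scrambled array.

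RAB29, which acts at the Golgi and on stressed lysosomes and recruits the kinase LRRK2, had 10.37 and 9.85 after NRP-2 siRNA, 9.29 and 9.46 after VEGF-C siRNA, and 10.02 and 9.73 after scrambled siRNA. The VEGF-C arrays were below all others. RAB29 was 1.67-fold higher with NRP-2 than with VEGF-C siRNA (log2 difference 0.74, SE 0.22, limma's adjusted p = 0.186), and its difference between VEGF-C and scrambled siRNA was -0.50 with an interval of -1.04 to 0.05, or -0.67 on its other measured probe set (limma's unadjusted p = 0.0111). The unadjusted p of RAB29 between NRP-2 and VEGF-C siRNA was over 0.05 without the first NRP-2 array, at a difference of 0.48, or without the first VEGF-C array. RAB32, a Rab of melanosomes, other lysosome-related organelles and mitochondria, had 12.28 and 11.48 after NRP-2 siRNA, 12.13 and 12.64 after VEGF-C siRNA, and 11.56 and 11.29 after scrambled siRNA. The NRP-2 arrays were split, as high as VEGF-C arrays in the first and as low as scrambled ones in the second. RAB32 was 1.94-fold higher with VEGF-C than with scrambled siRNA (log2 difference 0.96, SE 0.32, limma's adjusted p = 0.294), with an unadjusted p over 0.05 without either scrambled array or the second VEGF-C array. With NRP-2 siRNA its difference from scrambled siRNA was 0.46, with an interval of -0.34 to 1.26. RAB42 had 6.86 and 5.54 after NRP-2 siRNA, 5.17 and 5.72 after VEGF-C siRNA, and 4.97 and 4.85 after scrambled siRNA. Its 2.44-fold higher mean with NRP-2 than with scrambled siRNA (log2 difference 1.29, SE 0.45, limma's adjusted p = 0.333) rested on the first NRP-2 array, without which it was 0.63. It was 1.95 without the second NRP-2 array, and the unadjusted p of RAB42 was over 0.05 when any array but that was left out.

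Among the remaining Rabs, RAB28 was higher with both targeting siRNAs. RAB28, a Rab of cilia and photoreceptor outer segments, had 10.56 and 10.58 after NRP-2 siRNA, 10.60 and 10.40 after VEGF-C siRNA, and 10.07 and 9.95 after scrambled siRNA. Both scrambled arrays were below the other 4. RAB28 was 1.47-fold higher with NRP-2 than with scrambled siRNA (log2 difference 0.56, SE 0.13, limma's adjusted p = 0.231), with an unadjusted p under 0.05 in all 15 alternatives. It was 1.40-fold higher with VEGF-C than with scrambled siRNA (0.49, SE 0.13, limma's adjusted p = 0.251), and that unadjusted p was over 0.05 without the first VEGF-C or second scrambled array. These 2 differences share the scrambled arrays, and between NRP-2 and VEGF-C siRNA RAB28 differed by 0.07, with an interval of -0.26 to 0.39. Its 3 measured probe sets were each higher with NRP-2 than with scrambled siRNA, by 0.56, 0.62 and 0.51. RAB40B, whose protein recruits a ubiquitin ligase, had 9.07 and 9.72 after NRP-2 siRNA, 9.22 and 9.74 after VEGF-C siRNA, and 9.92 and 10.13 after scrambled siRNA. Scrambled arrays were the highest, but the differences of RAB40B, -0.63 for NRP-2 and -0.54 for VEGF-C siRNA, had intervals that took in 0 (-1.34 to 0.08 and -1.25 to 0.17).

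**Figure D4:**
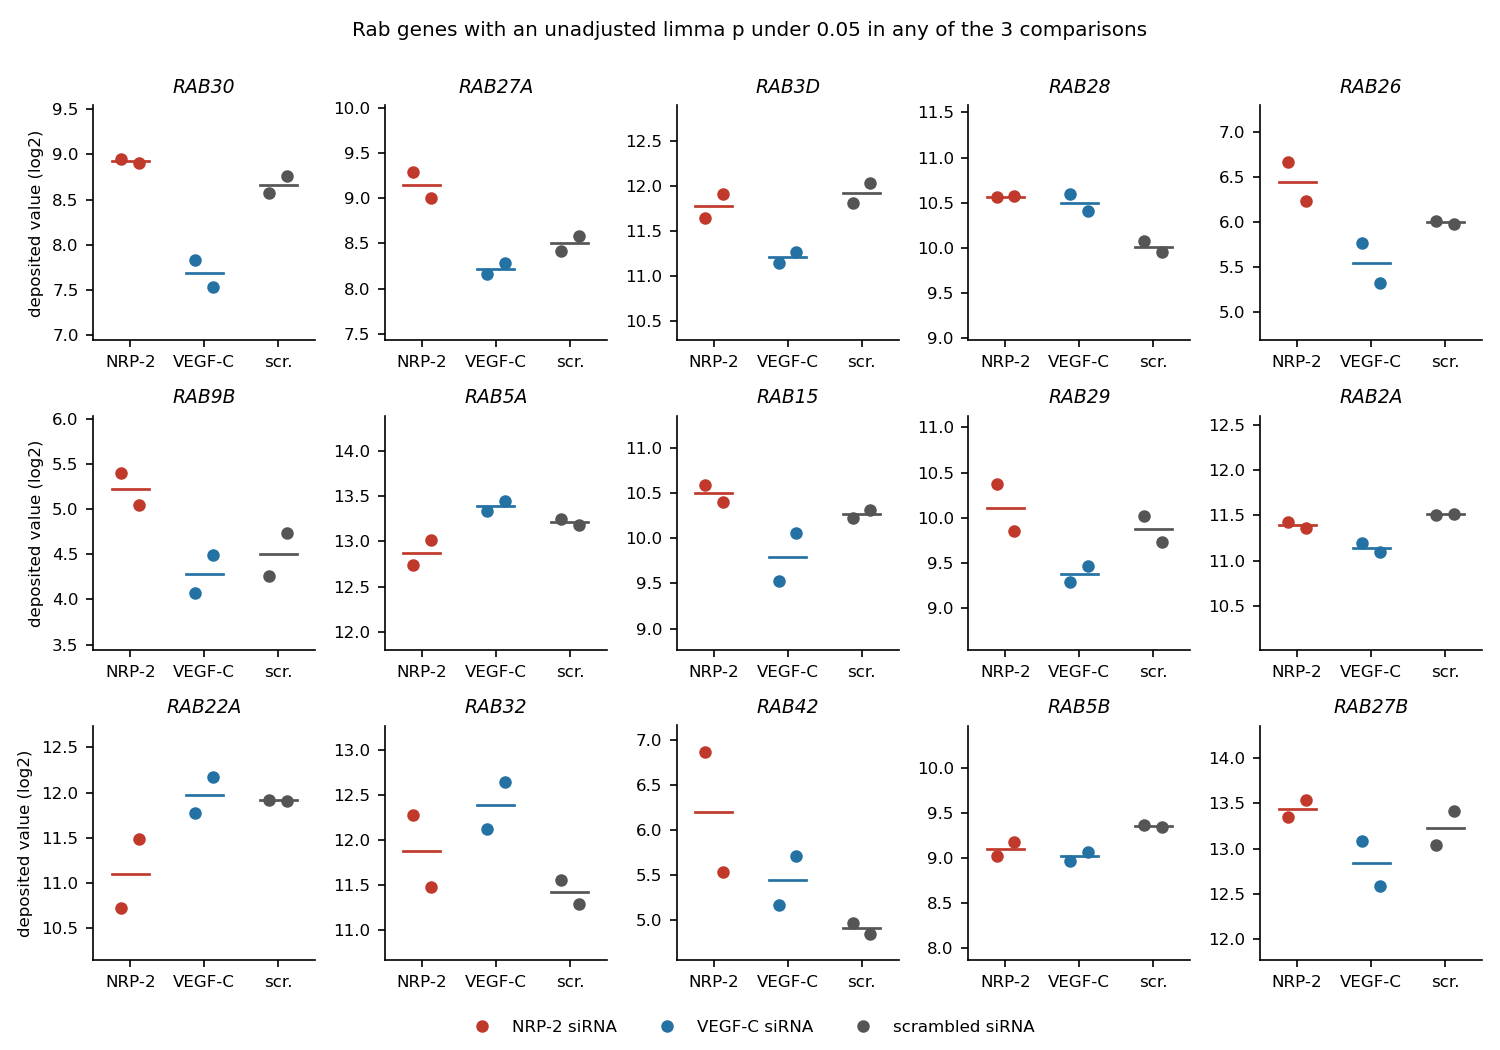
Deposited log2 value (vertical axis) of each Rab gene with an unadjusted limma p under 0.05 in any comparison, for the 2 arrays of NRP-2, VEGF-C and scrambled siRNA (horizontal axis); points are arrays and bars group means. In RAB30 and RAB3D the VEGF-C arrays lie below all others, in RAB22A the NRP-2 arrays do, and in RAB28 the scrambled arrays do.

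There were 21 differences of 15 genes with an unadjusted p under 0.05. Where an array is left out, its group has 1 array left, which is assumed to vary like those of the other groups. Of the 21, 7 kept that p when each array was left out in turn: RAB30 in both of its comparisons, RAB27A in both of its, RAB26 between NRP-2 and VEGF-C siRNA, RAB3D between VEGF-C and scrambled siRNA and RAB28 between NRP-2 and scrambled siRNA. With each array's average over the G2 and mitosis list as a covariate, 14 of the 21 kept it. The 7 that did not were RAB28, RAB2A, RAB32 and RAB5B between VEGF-C and scrambled siRNA, RAB42 and RAB22A between NRP-2 and scrambled siRNA, and RAB27B between NRP-2 and VEGF-C siRNA. These 7 kept their direction with the covariate, which also takes up 1 of the 3 residual degrees of freedom. The differences were then 0.39 for RAB28, -0.40 for RAB2A, 0.69 for RAB32, -0.28 for RAB5B, 1.01 for RAB42, -0.56 for RAB22A and 0.57 for RAB27B. In the scrambled group that average was 10.26 and 8.57, a gap of 1.69, where the gap was 1.08 in the NRP-2 and 0.75 in the VEGF-C group. The part of cell cycle state in these differences was not tested beyond this covariate.

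The genes that act on Rabs were counted from lists of known regulators. Of 44 measured exchange factors and their subunits (47 listed), 4 were higher and 5 lower between NRP-2 and VEGF-C siRNA at an unadjusted p under 0.05, 2 higher and 3 lower between NRP-2 and scrambled siRNA, and 3 higher and 3 lower between VEGF-C and scrambled siRNA. These counts are 20.5%, 11.4% and 13.6% of the list, near the 18.2%, 13.3% and 14.8% of all genes in the same comparisons. Their median differences in these comparisons were 0.067, -0.016 and -0.051, beside 0.018, 0.012 and -0.0044 over all genes. DENND2D, a DENN domain exchange factor, had 6.29 and 7.28 after NRP-2 siRNA, 8.69 and 8.97 after VEGF-C siRNA, and 8.68 and 8.84 after scrambled siRNA. Both NRP-2 arrays were far below the other 4, and the mean was 3.93-fold lower than with scrambled siRNA (log2 difference -1.97, SE 0.33, limma's adjusted p = 0.213). TRAPPC10, a subunit of the TRAPP exchange complex at the Golgi, had 6.04 and 5.25 after NRP-2 siRNA, 4.55 and 3.84 after VEGF-C siRNA, and 3.89 and 4.43 after scrambled siRNA. Its VEGF-C and scrambled values lie near the minimum for a measured gene. TRAPPC10 was 2.80-fold higher with NRP-2 than with scrambled siRNA (1.48, SE 0.38, limma's adjusted p = 0.249). DENND1A, an exchange factor for RAB35 on clathrin-coated vesicles, had 7.96 and 7.58 after NRP-2 siRNA, 9.23 and 8.68 after VEGF-C siRNA, and 8.28 and 7.64 after scrambled siRNA, 1.99-fold higher with VEGF-C than with scrambled siRNA (1.00, SE 0.30, limma's adjusted p = 0.266). RAB35, its substrate, had differences of 0.15 with NRP-2 and 0.02 with VEGF-C siRNA against scrambled siRNA, neither at an unadjusted p under 0.05.

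Of 34 measured GTPase activating proteins (39 listed), 5 were higher and 1 lower between NRP-2 and VEGF-C siRNA, 2 higher and 2 lower between NRP-2 and scrambled siRNA, and 0 higher and 6 lower between VEGF-C and scrambled siRNA, all at an unadjusted p under 0.05. These counts are 17.6%, 11.8% and 17.6% of the list, beside 18.2%, 13.3% and 14.8% of all genes. Between VEGF-C and scrambled siRNA, 6.95% of all genes were higher and 7.8% lower. The median of this list was 0.089 between NRP-2 and VEGF-C siRNA, -0.012 between NRP-2 and scrambled siRNA and -0.11 between VEGF-C and scrambled siRNA. SGSM3, which has a domain that acts on Rabs, had 9.35 and 9.83 after NRP-2 siRNA, 8.35 and 8.91 after VEGF-C siRNA, and 9.51 and 9.89 after scrambled siRNA. Both VEGF-C arrays were below the other 4, at 2.10-fold lower than scrambled siRNA (log2 difference -1.07, SE 0.27, limma's adjusted p = 0.241). TBC1D20, an activating protein for RAB1, was 1.48-fold lower with NRP-2 than with scrambled siRNA (-0.56, SE 0.14, limma's adjusted p = 0.249), and TBC1D2B was 1.84-fold higher (0.88, SE 0.21, limma's adjusted p = 0.231).

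Of 57 measured effectors (68 listed), 4 were higher and 6 lower at an unadjusted p under 0.05 between NRP-2 and VEGF-C siRNA, 2 higher and 3 lower between NRP-2 and scrambled siRNA, and 7 higher and 3 lower between VEGF-C and scrambled siRNA. These are 17.5%, 8.77% and 17.5% of the list, beside 18.2%, 13.3% and 14.8% of all genes. The medians of the effectors in these comparisons were -0.079, -0.0068 and 0.006. GOLGA2, a Golgi tether that binds RAB1, had 9.55 and 10.16 after NRP-2 siRNA, 10.45 and 10.27 after VEGF-C siRNA, and 10.88 and 10.79 after scrambled siRNA, and was 1.98-fold lower with NRP-2 than with scrambled siRNA (log2 difference -0.98, SE 0.22, limma's adjusted p = 0.231). VPS39, a subunit of the HOPS tether that binds RAB7, was 1.49-fold lower in the same comparison (-0.57, SE 0.13, limma's adjusted p = 0.231). MICALL1, a scaffold on tubular recycling endosomes, had 9.89 and 10.24 after NRP-2 siRNA, 11.24 and 11.14 after VEGF-C siRNA, and 10.68 and 10.30 after scrambled siRNA. The groups did not overlap, with VEGF-C arrays highest, and MICALL1 was 2.18-fold lower with NRP-2 than with VEGF-C siRNA (-1.12, SE 0.20, limma's adjusted p = 0.116). None of the 6 measured genes that deliver or prenylate Rabs (8 listed) had an unadjusted p under 0.05, a count of 0 in each of the 3 comparisons, with medians of 0.021 between NRP-2 and VEGF-C, -0.018 between NRP-2 and scrambled and 0.022 between VEGF-C and scrambled siRNA. For CHML, a Rab escort protein, the difference between VEGF-C and scrambled siRNA was -0.71 with an interval of -1.66 to 0.23, and its VEGF-C arrays, 13.28 and 12.11, were far apart. RABGGTB, a subunit of the enzyme that attaches the lipid anchor, differed by 0.18 with an interval of -0.20 to 0.56, and RABIF, a Rab chaperone, by 0.00 with an interval of -0.65 to 0.65.

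Promoters of Rab genes were searched for CACGTG, the core of the element bound by TFEB, a transcription factor of lysosome and autophagy genes, because the series title names autophagy. The motif reads the same on both strands, and the windows ran from 250 bases before to 50 bases after the start (RefSeq, GRCh38.p14). Of 57 Rab genes, 45 had a window in the table, with 64 windows in all. CACGTG was in 6 of these windows (9.38%), against 2548 of all 35116 windows (7.26%), and its extended form TCACGTGA, which contains it, in 2 (3.12%), against 344 (0.98%). The genes with CACGTG were RAB21, RAB24, RAB29, RAB31, RAB4A and RAB5A, of which only RAB21 and RAB5A held TCACGTGA. On their brightest probe sets, RAB21, RAB24, RAB31 and RAB4A had no unadjusted p under 0.05 in any comparison. Windows of RAB29 and RAB5A are shown because both hold the motif and differed between NRP-2 and VEGF-C siRNA in opposite directions (0.74 and -0.52), and that of RAB30 because this gene had the smallest p, with the motif in 0 of its 3 windows. CACGTG is in capitals, 20 bases into the transcript in RAB29 and 121 bases before the start in RAB5A. The windows, each on the strand of its gene, are chr11:83071848-83072147 (minus strand) for RAB30, chr1:205775433-205775732 (minus strand) for RAB29 and chr3:19946847-19947146 (plus strand) for RAB5A.
RAB30: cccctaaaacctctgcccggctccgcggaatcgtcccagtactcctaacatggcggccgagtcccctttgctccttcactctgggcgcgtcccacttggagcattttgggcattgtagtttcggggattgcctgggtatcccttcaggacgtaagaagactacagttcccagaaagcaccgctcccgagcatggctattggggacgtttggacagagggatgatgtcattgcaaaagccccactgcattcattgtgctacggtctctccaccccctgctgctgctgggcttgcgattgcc
RAB29: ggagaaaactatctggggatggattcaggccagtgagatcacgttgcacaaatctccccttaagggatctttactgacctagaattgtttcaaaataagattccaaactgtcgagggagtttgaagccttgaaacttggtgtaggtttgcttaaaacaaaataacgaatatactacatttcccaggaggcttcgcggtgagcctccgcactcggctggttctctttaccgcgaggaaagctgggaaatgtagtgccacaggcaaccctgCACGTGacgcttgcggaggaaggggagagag
RAB5A: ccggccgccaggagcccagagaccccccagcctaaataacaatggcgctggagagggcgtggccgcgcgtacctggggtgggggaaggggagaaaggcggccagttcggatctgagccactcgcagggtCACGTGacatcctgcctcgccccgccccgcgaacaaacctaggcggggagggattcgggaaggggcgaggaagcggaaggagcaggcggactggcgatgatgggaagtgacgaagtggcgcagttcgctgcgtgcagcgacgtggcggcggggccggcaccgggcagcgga
A match is a description of these letters only, and binding to these windows was not measured.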

How the data were processed

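Values are the authors' log2 signal of every probe set on 6 arrays, as deposited. The submitters' processing notes name Partek and GCRMA, with version and settings not given in the sources used here. The GCRMA method corrects background by probe sequence, normalizes arrays to each other and summarises probes. Values near its floor can be compressed, so folds of dim genes are uncertain. Whether those folds are too small or too large was not tested. Array medians of the deposited log2 values spread over 0.07. Precision is limited by the number of arrays.

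The platform annotation gave 1 gene for 41091 of 54675 probe sets, several for 1801 and none for 11721, and 62 were controls. Single-gene probe sets that averaged log2 4 or more were kept (19946), and the brightest on average stood for each of 11131 genes. Groups came from the sample labels. All 6 arrays were fitted with limma 3.58.1 in R 4.3.3 (lmFit, eBayes, two-sided; 3 residual and 2.46 prior degrees of freedom), with Benjamini-Hochberg adjustment over 11131 genes, and the procedure was tested on simulated data. Levels are deposited log2 values, and differences are of group means on the log2 scale with their standard error (SE) and 95% interval.

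The members, roles, regulator lists and marker lists were chosen with earlier results of these data known. Rab genes were named where they were among the 8 smallest p of a comparison, or were RAB1A, RAB5A, RAB7A, RAB11A, RAB24, RAB27A, RAB27B, RAB32, RAB33B or RAB38, and regulators where among the 3 smallest p of their list against scrambled siRNA. Alternatives changed the low-value filter, the probe set rule, the normalization, the arrays fitted, a trend in the variance prior, a replicate block, a G2 and mitosis covariate, and left out each array. Sequences are from RefSeq (GRCh38.p14). No coordinates of the arrays' own build were used.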

Additional observations from a re-analysis of the deposited data

How the results depend on the processing

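No Rab gene passed an adjusted p of 0.05 under any alternative (0 of 981 values of 66 named results). Of these values, 857 were counted as kept, 53 lost an unadjusted p under 0.05 and 33 gained it. Results with such a p in the main analysis were kept if p and direction held. Results without it were kept if they stayed without it and shifted by less than the gene's residual SD, whatever their direction. Another 37 shifted farther. Direction was compared only where the main or the alternative p was under 0.05, and 1 such value reversed. This was the difference of RAB27B between NRP-2 and VEGF-C siRNA, which was -0.0058 when its probe sets were averaged. With no low-value filter, 1 gene of all passed an adjusted p of 0.05 between NRP-2 and VEGF-C siRNA. Between VEGF-C and scrambled siRNA 1 did as well (NWD2 in both, named after its values were seen). The Rab medians in these comparisons were 0.021 and -0.051. Between NRP-2 and scrambled siRNA, 9 of all 57 Rab genes then had an unadjusted p under 0.05 (5 of 42 in the main analysis). Over all genes that count was 1904, beside 1478 in the main analysis. With a mean of at least log2 6 the Rab count was 3, the count over all genes 1392, and the Rab median between VEGF-C and scrambled siRNA -0.15. RAB9B, RAB26 and RAB42 gave no value there. With the G2 and mitosis covariate the NRP-2 count was 3 with a median of 0.041, and between VEGF-C and scrambled siRNA 843 genes of all had such a p (1642 in the main analysis), with a Rab median of -0.10.

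Leaving out each array, the Rab counts ranged from 7 to 11 between NRP-2 and VEGF-C siRNA, 2 to 11 between NRP-2 and scrambled siRNA (2 without the first scrambled array, 11 without the second NRP-2 array) and 2 to 7 between VEGF-C and scrambled siRNA (2 without the second scrambled array). Between NRP-2 and VEGF-C siRNA the count over all genes ranged from 1491 to 2396 and the Rab median from 0.095 to 0.17. Between NRP-2 and scrambled siRNA they ranged from 729 to 2706 and from -0.0032 to 0.056, and between VEGF-C and scrambled siRNA from 666 to 1989 and from -0.22 to -0.063. The cause of these changes was not tested; fewer arrays and other sets of genes tested are part of each alternative's construction.

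Same-numbered arrays deviated from their group means with correlations of 0.12 (NRP-2 with VEGF-C), 0.58 (NRP-2 with scrambled) and 0.11 (VEGF-C with scrambled). With only 2 numbers and no label of a shared culture or day, the arrays were not taken as paired. With the replicate number as a block, 10 of 42 Rab genes had an unadjusted p under 0.05 between NRP-2 and VEGF-C siRNA. There were 8 between NRP-2 and scrambled siRNA and 7 between VEGF-C and scrambled siRNA. Over all 11131 genes the counts in these comparisons were 2269, 1909 and 1997 with the block. They were 2026, 1478 and 1642 without it, so the counts over all genes rose as well. Of the named differences with such a p, RAB5B between VEGF-C and scrambled siRNA (limma's unadjusted p = 0.0504) and RAB27B between NRP-2 and VEGF-C siRNA (0.0526) passed over 0.05 with the block, at the same differences, which leaves 3 of the 4 secretion genes.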
